A study of Mus musculus with 104 samples.

Results

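The comparison asked how the response of mouse lung to phosgene at 12 h differed from its response at 8 h. Phosgene is a reactive gas that acylates amines and thiols and injures the lining of the airways and alveoli. The quantity followed here is the phosgene effect at 12 h minus the phosgene effect at 8 h, where an effect is phosgene minus air on the log2 scale, and it is called the change of the phosgene effect below. All 12393 genes of the deposited value table that had a probe set with 1 gene symbol were measured, in 12 of the 52 numbered lungs of the series. The lungs formed 4 of its 17 groups, which are phosgene at 12 h, air at 12 h, phosgene at 8 h and air at 8 h, with 3 lungs each. The labels call the phosgene groups CG with 32 mg, and the air groups Air with a further digit 1 that they do not explain. They give 12 and 8 without a unit, and both the hours and the meaning of 32 mg as mass of phosgene per volume of inhaled air are taken from what is known of the study. Strain, age and sex are not stated, and nothing in the labels ties a lung number to a single animal, so p-values measure only the spread between numbered lungs, which may be technical in part. Total RNA of whole lung was measured on 1-colour oligonucleotide arrays, 2 chips for each lung.

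Lung cells answer reactive gases with a few well known transcription programmes. Oxidised or acylated thiols release the transcription factor NRF2, which pairs with a small Maf protein and switches on glutathione synthesis and other antioxidant enzymes. Unfolded proteins release heat shock factor, which induces chaperones. Growth factor and stress kinase signals induce immediate early transcription factors such as those of the AP-1 family within minutes, and these transcripts are normally short-lived.

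Values below are intensities, in the arbitrary unit of the scaled array, given for 1 lung as the level on the log2(intensity + 16) scale averaged over its 2 chips and turned back. Log2 differences are on that scale with 16 added, which understates the change of dim genes. Genes were called where limma's p, after Benjamini-Hochberg adjustment across all 12393 genes, was under 0.05. Chip medians ran from 68.2 to 89.5, and the precision is limited by having 3 lungs in a group. Surfactant genes marked the tissue as lung in all 4 groups, with summed intensities of the 12 alveolar type 2 genes of 30480 to 38310 in phosgene lungs at 12 h, 32650 to 34460 in air lungs at 12 h, 27400 to 34250 in phosgene lungs at 8 h and 33510 to 39780 in air lungs at 8 h. Some lungs stood apart. The summed intensity of 7 skeletal muscle genes was 1128 in lung 1 of phosgene at 12 h, 1133 in lung 3 of air at 12 h and 1768 in lung 1 of phosgene at 8 h, and 257.7 to 421.8 in the other lungs. Lung 2 of phosgene at 12 h had the lowest levels of its group for many stress genes, and lung 3 of phosgene at 8 h had the lowest levels of its group for many immediate early genes.

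Fewer genes were called against air at 12 h than at 8 h. Of the 6 genes called for the change of the effect, 4 had an effect that was positive at 8 h and lower at 12 h. At 12 h 163 genes were above air (1.32% of those tested) and 64 below (0.516%), while at 8 h 486 were above (3.92%) and 598 below (4.83%), and 159 genes were called at both times, all in the same direction. The test of the change itself called 4 genes lower (0.0323%) and 2 higher (0.0161%), and the unadjusted p was under 0.05 for 340 genes lower (2.74%) and 479 higher (3.87%). Over all genes the median change was 0.01, and the median phosgene effect was -0.06 at 12 h and -0.07 at 8 h. The median standard error of the change was 0.23, against 0.16 for the effect at 8 h alone. The change is formed from 4 group means and the effect from 2, and both use the spread estimated over all 17 groups. All 6 calls were lost in each of 3 fits that left out 1 lung. They left out phosgene lung 2 or air lung 3 of 12 h, or phosgene lung 1 of 8 h. Adjusted p was then 0.0512 to 0.275 by limma, with the same direction in each. Fits without 1 of the other lungs kept from 2 calls, without lung 2 of air at 8 h, to all 6. The 4 groups fitted alone kept 0 of the 6 (adjusted p = 0.358 to 0.653, limma). Chip B alone also kept 0 (adjusted p = 0.0902 to 0.579).

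**Figure D1:**
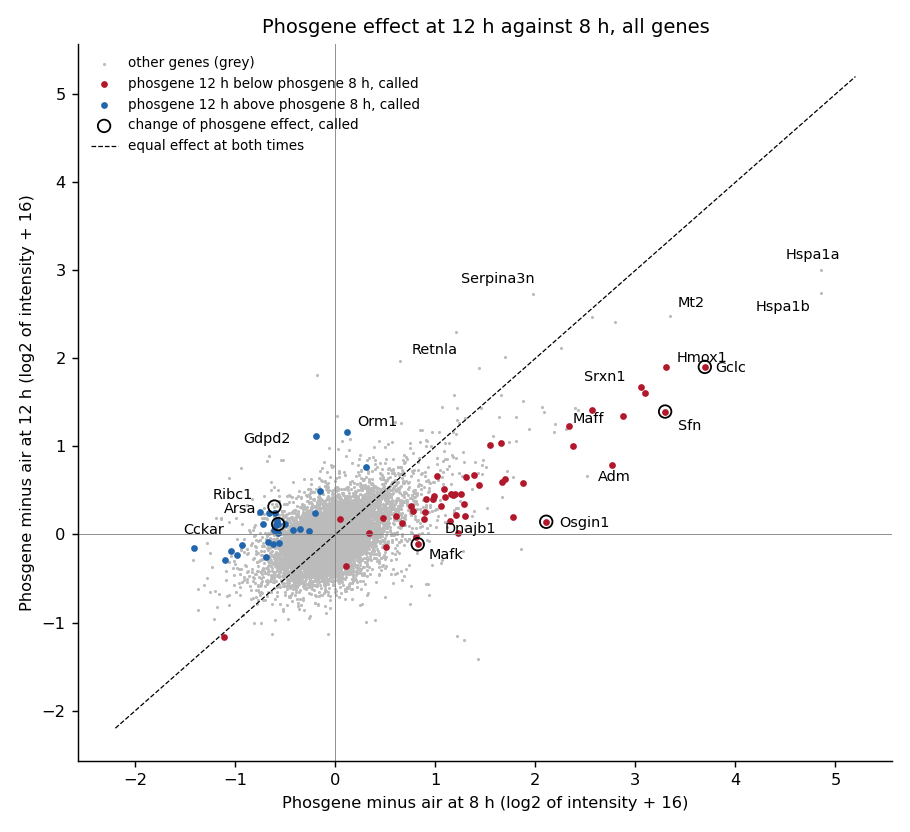
Each point is 1 of 12393 genes, with the log2 phosgene effect at 8 h on the x axis and at 12 h on the y axis; 50 red and 27 blue genes were called between phosgene lungs of 12 h and 8 h, and circles mark the 6 genes called for the change. Most red points lie to the right of 0 and below the dashed line of equal effect, and since the phosgene lungs of 8 h enter both the colour and the x axis, the place of coloured points is a description only.

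The 4 genes called lower were Gclc, Sfn, Osgin1 and Mafk. Gclc encodes the catalytic part of glutamate-cysteine ligase, the enzyme that sets the rate of glutathione synthesis. Its levels were 1469, 893 and 1172 in phosgene lungs at 12 h, against 199, 343 and 381 in air lungs at 12 h. They were 2696, 2853 and 2173 in phosgene lungs at 8 h, against 212, 188 and 153 in air lungs at 8 h. Every phosgene lung of 12 h lay below every phosgene lung of 8 h and above every air lung. Gclc was 3.74-fold above air at 12 h and 12.9-fold above air at 8 h, and the change was -1.79 ± 0.31 SE (adjusted p = 0.0100, limma). Of this, -1.14 was the difference between phosgene lungs of the 2 times and 0.65 the difference between air lungs, 12 h minus 8 h in both, and the difference between air lungs was not called (adjusted p = 0.977). The next brightest of its 2 probe sets gave a change of -1.23, which was not called (adjusted p = 0.277).

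Sfn encodes 14-3-3 sigma, an adaptor protein of epithelial cells that slows cell division after damage. Its levels were 62.8, 35.5 and 40.2 in phosgene lungs at 12 h, against 4.53, 11.1 and 6.50 in air lungs at 12 h. They were 203, 261 and 120 in phosgene lungs at 8 h, against 3.99, 2.50 and 7.46 in air lungs at 8 h. The phosgene groups did not overlap, and air lungs of both times were at or near the floor of the array. Sfn had a change of -1.90 ± 0.35 SE (adjusted p = 0.0117, limma), with a phosgene effect of 1.40 at 12 h and 3.30 at 8 h.

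Osgin1, a growth inhibitor induced by oxidised lipids through NRF2, had levels of 116, 35.1 and 90.5 in phosgene lungs at 12 h, against 67.2, 59.4 and 68.6 in air lungs at 12 h. Its levels were 380, 162 and 178 in phosgene lungs at 8 h, against 57.1, 27.6 and 37.7 in air lungs at 8 h. At 12 h the phosgene lungs lay on both sides of the air lungs, with lung 2 below all of them, while at 8 h every phosgene lung was above every air lung. Air lungs of 12 h were all above those of 8 h, so part of the change came from air lungs. The change was -1.96 ± 0.39 SE (adjusted p = 0.0250, limma), and without lung 2 of phosgene at 12 h it was -1.56.

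Mafk is one of the small Maf proteins that bind DNA together with NRF2. It showed levels of 224, 226 and 222 in phosgene lungs at 12 h, against 244, 236 and 250 in air lungs at 12 h. They were 431, 356 and 296 in phosgene lungs at 8 h, against 208, 210 and 169 in air lungs at 8 h. The 3 phosgene lungs of 12 h lay within a few units of each other and below all 3 air lungs of that time, whereas all phosgene lungs of 8 h were above all other lungs. Here too the air lungs of 12 h were all above those of 8 h. The phosgene effect was -0.11 at 12 h and 0.82 at 8 h, a change of -0.93 ± 0.17 SE (adjusted p = 0.0100, limma). Mafk and Gclc kept their calls in 10 of the 13 fits that left out 1 lung, more than Sfn (7), Osgin1 (6), Arsa (5) and Ribc1 (4). Of these fits, 1 left out an air lung of 72 h, outside the 4 groups, so it could not move the estimates, and it kept all 6 calls.

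The 2 genes called higher were below air at 8 h and not at 12 h. Arsa encodes arylsulfatase A, a lysosomal enzyme that removes sulfate from sulfatides. Arsa had levels of 296, 356 and 364 in phosgene lungs at 12 h, against 286, 335 and 310 in air lungs at 12 h. It had 233, 251 and 276 in phosgene lungs at 8 h, against 387, 402 and 363 in air lungs at 8 h. The groups overlapped at 12 h, while at 8 h all phosgene lungs were below all air lungs. The change of Arsa was 0.69 ± 0.14 SE (adjusted p = 0.0250, limma), made of a difference of 0.40 between phosgene lungs and -0.29 between air lungs, 12 h minus 8 h.

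Ribc1, a protein of the microtubule doublets of cilia, had levels of 60.2, 52.5 and 64.03 in phosgene lungs at 12 h, against 56.0, 32.8 and 45.6 in air lungs at 12 h. Ribc1 had 39.6, 44.5 and 45.2 in phosgene lungs at 8 h, against 79.0, 65.6 and 78.4 in air lungs at 8 h. Air lungs of 8 h were above all other lungs, and the phosgene lungs of 8 h overlapped the air lungs of 12 h. The change was 0.93 ± 0.19 SE (adjusted p = 0.0365, limma), to which air lungs gave the larger share, a difference of -0.59 against 0.34 in phosgene lungs. The call for Ribc1 was lost in the 3 fits of single chips (adjusted p = 0.179 to 0.195), including the one with hybridization day as a term, while the other 5 calls stood there. No hybridization day held all 4 groups. Within the 2 days that held chips of phosgene lungs of both times, the difference 12 h minus 8 h was -0.95 and -0.88 for Gclc, -0.94 and -1.25 for Sfn, -1.11 and -1.38 for Osgin1 and -0.40 and -0.35 for Mafk. For Arsa it was 0.13 and 0.31, and for Ribc1 -0.10 and 0.57, so Ribc1 had no common direction.

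**Figure D2:**
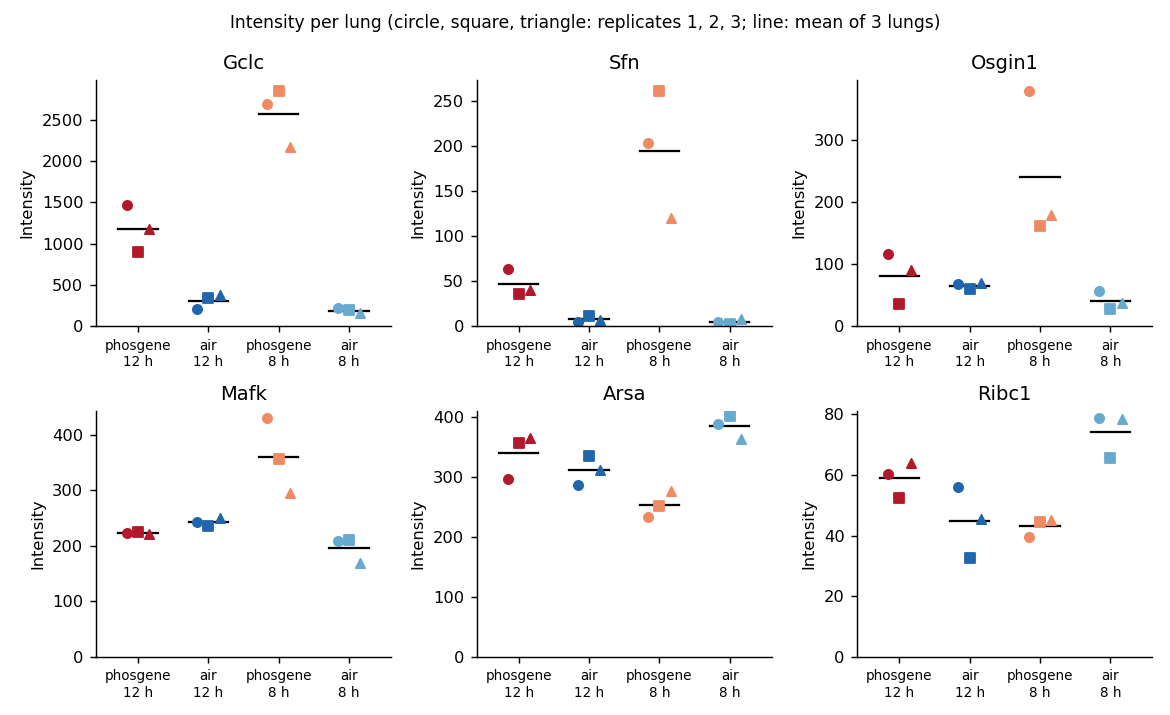
Intensity per lung (y axis, linear from 0) of the 6 called genes in phosgene and air lungs of 12 h and 8 h; symbols mark the replicate number and lines the mean of 3 lungs. Gclc, Sfn and Mafk were lower in all 3 phosgene lungs of 12 h than in all 3 of 8 h, and Ribc1 was highest in the air lungs of 8 h.

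The genes next in rank missed the threshold. Among those with negative changes were Adm, the vasodilator peptide adrenomedullin (change -1.85, adjusted p = 0.0662), and the chaperone Hsph1 (change -1.98, adjusted p = 0.0842). The small Maf gene Maff had a change of -1.53 (adjusted p = 0.0842). Txnrd1, a thioredoxin reductase, had -1.11 and Ppp1r15a, which directs a phosphatase to the initiation factor eIF2 alpha, -0.94. Ifrd1, a transcriptional coregulator, had -1.07 (adjusted p of 0.164 to 0.173 for these genes, limma). Adm had levels of 120, 54.8 and 121 in phosgene lungs at 12 h, against 51.6, 48.0 and 61.0 in air lungs at 12 h. It had 234, 231 and 164 in phosgene lungs at 8 h, against 15.8, 19.1 and 37.4 in air lungs at 8 h. One phosgene lung of 12 h lay within the air lungs of that time, and the levels in air lungs of 8 h were all below those of 12 h. Positive changes were those of Gtf2h4, a subunit of the repair and transcription factor TFIIH (0.92, adjusted p = 0.0753), and Cckar, a cholecystokinin receptor (1.26, adjusted p = 0.150). Dpcd (0.63) and Nme5 (0.73) belong to motile cilia. Arfip2 (0.49), Bckdhb (0.72), Pomt1 (1.01) and Rassf9 (1.40) act in membrane traffic, amino acid breakdown, protein mannosylation and Ras-linked signalling. Their adjusted p ran from 0.170 to 0.183 (limma).

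Phosgene lungs of the 2 times compared directly gave more calls, 50 genes lower (0.403%) and 27 higher (0.218%) at 12 h than at 8 h, 77 in all (0.621%). With each chip centred on its median 53 genes were called, of which 15.1% were higher, against 35.1% of the 77, and with quantile normalization the share was 24.2%. Air lungs compared in the same way gave 0 calls by limma, with 617 genes at an unadjusted p under 0.05 (4.98%), while limma with array weights called 93 and the fits of single chips 4 or 5. The comparison of phosgene lungs shares all its lungs with the change of the phosgene effect, so values of both are set side by side and neither supports the other. The largest falls were those of Hmox1 (-2.01, adjusted p = 0.000229), Srxn1 (-1.77), Sfn (-1.72), Mt1 (-1.54) and Maff (-1.46). Without lung 1 of phosgene at 8 h 4 genes were called, all of them among the 50, and these were Akr1b8, Hmox1, Sfn and Srxn1. Without lung 2 of phosgene at 12 h 11 genes were called, of which 10 were among the 77.

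Hmox1, heme oxygenase, which breaks down heme, had levels of 346, 73.9 and 268 in phosgene lungs at 12 h, against 42.3, 46.8 and 32.5 in air lungs at 12 h. They were 1597, 583 and 607 in phosgene lungs at 8 h, against 51.1, 69.7 and 92.9 in air lungs at 8 h. Phosgene lungs of 12 h were all below those of 8 h and all above the air lungs of 12 h, though lung 2 lay within the range of the air lungs of 8 h. Its phosgene effect was 1.90 at 12 h and 3.30 at 8 h, and the change of -1.40 was not called (adjusted p = 0.292, limma). Srxn1, the sulfiredoxin that repairs oxidised peroxiredoxins, had 406, 98.5 and 217 in phosgene lungs at 12 h, against 55.2, 46.0 and 62.1 in air lungs at 12 h. Srxn1 had 859, 717 and 684 in phosgene lungs at 8 h, against 79.8, 76.1 and 71.6 in air lungs at 8 h. The phosgene groups did not overlap, and each stood above its air group. Within the 2 hybridization days that held chips of phosgene lungs of both times, the difference 12 h minus 8 h was -1.80 and -1.78 for Hmox1 and -1.84 and -1.50 for Srxn1.

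Mt1, a metallothionein that binds zinc, had levels of 1341, 437 and 1444 in phosgene lungs at 12 h, against 312, 362 and 239 in air lungs at 12 h. It had 3220, 3412 and 1973 in phosgene lungs at 8 h, against 380, 270 and 297 in air lungs at 8 h. Phosgene lungs of 12 h lay below those of 8 h, with lung 2 of 12 h close to the air lungs. The call for Mt1 was lost without lung 2 of phosgene at 12 h and without lung 1 or lung 2 of phosgene at 8 h (adjusted p up to 0.245). Its neighbour gene Mt2, of the same role, had a difference of -0.98 that was not called (adjusted p = 0.123), and its phosgene effect was 2.48 at 12 h and 3.35 at 8 h.

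The largest rises were dimmer genes. Gdpd2, a membrane glycerophosphodiesterase, had levels of 26.8, 57.2 and 32.1 in phosgene lungs at 12 h, against 12.3, 9.07 and 4.55 in air lungs at 12 h. Gdpd2 had 5.40, 6.03 and 6.35 in phosgene lungs at 8 h, against 5.59, 11.5 and 10.7 in air lungs at 8 h. Phosgene lungs of 12 h were above all other lungs, which were dim throughout, and Gdpd2 rose by 1.28 (adjusted p = 0.0249, limma). Cckar, by contrast, had 150, 214 and 119 in phosgene lungs at 12 h, against 209, 160 and 163 in air lungs at 12 h. It had 35.3, 75.9 and 62.2 in phosgene lungs at 8 h, against 179, 160 and 188 in air lungs at 8 h. All phosgene lungs of 8 h lay below all other lungs, and phosgene lungs of 12 h overlapped the air lungs, a rise of 1.27 between phosgene lungs (adjusted p = 0.000858). H2aw, a histone of the H2A family, and Fhdc1, a formin that acts on actin and microtubules, rose by 0.92 and 0.88 between phosgene lungs (adjusted p = 0.00423 and 0.0113). Their phosgene effects were -0.23 and -0.12 at 12 h, and -0.99 and -0.94 at 8 h. The calls of Gdpd2, H2aw and Fhdc1 were each lost in 3 of the 6 fits that left out a phosgene lung, with adjusted p up to 0.353, 0.115 and 0.0858. Lung 2 of phosgene at 12 h and lung 1 of phosgene at 8 h were among the 3 for each gene. That of Cckar was lost without lung 1 of phosgene at 8 h (adjusted p = 0.0653). Ccr2, the receptor that brings monocytes into inflamed tissue, had 77.3, 106 and 76.6 in phosgene lungs at 12 h, against 91.3, 51.1 and 72.2 in air lungs at 12 h. It had 35.5, 39.0 and 39.2 in phosgene lungs at 8 h, against 59.9, 75.8 and 72.8 in air lungs at 8 h. Phosgene lungs of 12 h overlapped the air lungs, and those of 8 h lay below all of them. Its call was lost when any of 5 of the 6 phosgene lungs was left out (adjusted p up to 0.395), and its next brightest probe set gave a change of 0.24, against 0.91.

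Of 22 measured NRF2 target and glutathione genes, 11 were above air at 12 h (background 1.32%) and 18 at 8 h (3.92%), with 0 below at either time. The median phosgene effect was 0.67 at 12 h and 1.34 at 8 h. The change was negative for 21 and had a median of -0.50, with 2 members called lower and 9 lower at an unadjusted p under 0.05 (background 2.74%). Between phosgene lungs 8 members fell (background 0.403%). Beside Gclc, Osgin1, Hmox1 and Srxn1 these included Txnrd1, with 969, 377 and 700 in phosgene lungs at 12 h, against 247, 294 and 250 in air lungs at 12 h. Txnrd1 had 1727, 1377 and 1158 in phosgene lungs at 8 h, against 240, 264 and 291 in air lungs at 8 h. Each phosgene lung of 12 h was below each of 8 h and above the air lungs. Blvrb, biliverdin reductase, was among the genes of largest effect at both times (2.41 at 12 h and 2.80 at 8 h), and its change of -0.39 had a 95% interval of -1.52 to 0.75. Per lung, the median over the members minus the mean of the air lungs was 1.08, 0.27 and 0.82 in phosgene lungs of 12 h and 1.36, 1.30 and 1.22 in phosgene lungs of 8 h. Without lung 2 of phosgene at 12 h, the lowest, the median change was -0.13, with 8 members lower at an unadjusted p under 0.05 and 2 called between phosgene lungs.

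Of 16 heat shock and folding genes, 2 were above air at 12 h (background 1.32%) and 13 at 8 h (3.92%), with median effects of 0.21 and 1.14. All 16 changes were negative, with a median of -0.78. At an unadjusted p under 0.05, 12 were lower (background 2.74%), though 0 were called by limma. The 2 members still called at 12 h were Hspa1a and Hspa1b, the inducible HSP70 genes, whose near-identical sequences make their separate values uncertain. Hspa1b had 2055, 542 and 1700 in phosgene lungs at 12 h, against 125, 219 and 184 in air lungs at 12 h. It had 3167, 2379 and 2159 in phosgene lungs at 8 h, against 67.2, 72.7 and 77.0 in air lungs at 8 h. Phosgene lungs of both times were above all air lungs, and lung 2 of 12 h was far below the others of its group. The change of Hspa1b was -2.11 ± 0.54 SE (adjusted p = 0.179, limma). All its air lungs of 12 h were above all those of 8 h, so part of the change came from air lungs. Over the list the median difference, 12 h minus 8 h, was -0.71 in phosgene lungs and 0.20 in air lungs. Hsph1, an HSP110 chaperone that recharges HSP70, had 479, 231 and 313 in phosgene lungs at 12 h, against 182, 194 and 173 in air lungs at 12 h. It had 1963, 621 and 605 in phosgene lungs at 8 h, against 125, 106 and 129 in air lungs at 8 h. At 8 h lung 1 was far above the other phosgene lungs, and the phosgene groups did not overlap. Air lungs of 12 h were again all above those of 8 h. Dnajb1, the HSP40 partner, had a phosgene effect of 0.20 at 12 h and 1.78 at 8 h, and a change of -1.58 (adjusted p = 0.183). Between phosgene lungs 6 members fell (background 0.403%). Of these limma called 0 without lung 1 of phosgene at 8 h and 0 without lung 2 of phosgene at 12 h. The median change was -0.58 without lung 1 of phosgene at 8 h and -0.76 without lung 2 of phosgene at 12 h, with 9 and 10 members lower at an unadjusted p under 0.05.

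Of 25 immediate early genes, 5 were above air at 12 h (background 1.32%) and 17 at 8 h (3.92%), with median effects of 0.16 and 0.91. The change was negative for 24, with a median of -0.60, and 13 were lower at an unadjusted p under 0.05 (background 2.74%). Between phosgene lungs 5 members fell (background 0.403%), Maff among them. Maff had 72.2, 48.1 and 34.4 in phosgene lungs at 12 h, against 13.6, 9.71 and 6.89 in air lungs at 12 h. It had 234, 209 and 89.0 in phosgene lungs at 8 h, against 4.98, 9.15 and 12.2 in air lungs at 8 h. Every phosgene lung of 12 h was below every one of 8 h and above every air lung. Ccn1, a matrix protein induced by growth factors, fell by 1.03 on the log2 scale between phosgene lungs (adjusted p = 0.0351), with 442, 439 and 430 at 12 h and 1232, 1388 and 432 at 8 h. Lung 3 of 8 h lay within the range of the 12 h lungs. Atf3, a transcription factor induced by many stresses, had effects of 1.68 at 12 h and 3.05 at 8 h, and Egr1 of 1.19 and 2.30, with changes of -1.37 and -1.11 that were not called. Per lung the list median above air was 0.07, 0.40 and 0.13 at 12 h and 1.11, 1.05 and 0.33 at 8 h, so the phosgene groups overlapped. Members lower at an unadjusted p under 0.05 numbered 19 without lung 3 of phosgene at 8 h and 10 without lung 1 or lung 2 of phosgene at 8 h. The calls between phosgene lungs were 12 without lung 3 of phosgene at 8 h, 1 without lung 2 of either phosgene group and, by limma, 0 without lung 1 of phosgene at 8 h.

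**Figure D3:**
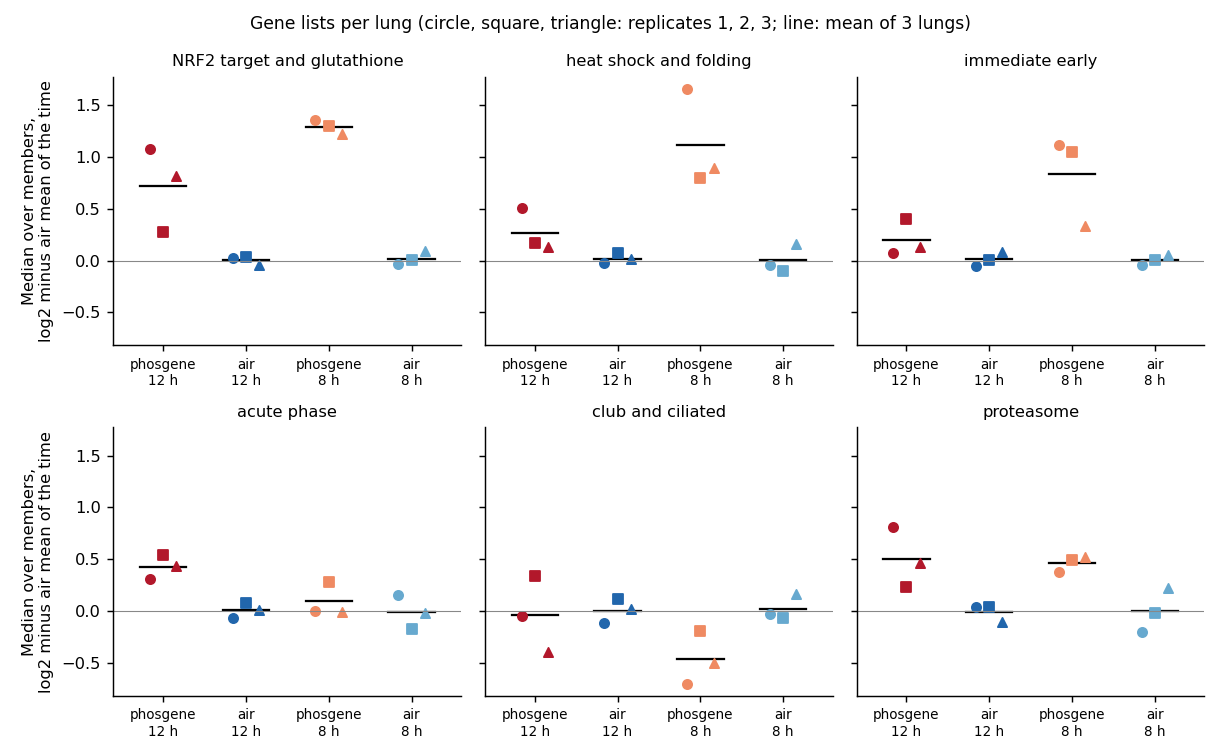
Median over the members of 6 gene lists in each lung, as log2 level minus the mean of the air lungs of the same time (y axis), for phosgene and air lungs of 12 h and 8 h; symbols mark the replicate number and lines the mean of 3 lungs. Heat shock and folding genes lay at 0.13 to 0.51 in phosgene lungs of 12 h and at 0.80 to 1.65 in those of 8 h, while proteasome genes overlapped between the times.

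Promoters of a few genes of these groups are printed to show where the elements that NRF2 with small Maf, AP-1 and heat shock factor are known to bind stand. RefSeq windows of the 250 bases before an annotated start (build GRCm38.p6) were matched by symbol for 9887 of the 12393 genes, Gclc not among them. The antioxidant response element was searched as TGACNNNGC, the heat shock element as 3 units of GAA in alternating orientation with 2 bases between them, and the AP-1 site as TGANTCA, on both strands, and an AP-1 match TGACTCA can be the start of an antioxidant element. The windows printed were chosen after their matches were seen, and capitals mark the match. The Mafk window lies at chr5:139791286-139791535, the Maff window at chr15:79346371-79346620 and the Txnrd1 window at chr10:82858956-82859205, each on the plus strand with 1 antioxidant element. Maff and Txnrd1 have 3 windows each, of which this is the one with a match. The Osgin1 window, at chr8:119436897-119437146 on the plus strand, holds 1 AP-1 match and 0 antioxidant elements as searched. The Hspd1 window, at chr1:55087933-55088182 on the minus strand, holds 2 overlapping heat shock elements in 1 run, and the window of Hspe1, read from the other strand, shares them.
Mafk: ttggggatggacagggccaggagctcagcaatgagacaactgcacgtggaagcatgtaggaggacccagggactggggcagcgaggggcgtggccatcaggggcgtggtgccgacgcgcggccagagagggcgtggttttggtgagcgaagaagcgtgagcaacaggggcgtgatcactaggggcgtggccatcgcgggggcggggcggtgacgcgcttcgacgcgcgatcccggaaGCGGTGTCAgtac
Maff: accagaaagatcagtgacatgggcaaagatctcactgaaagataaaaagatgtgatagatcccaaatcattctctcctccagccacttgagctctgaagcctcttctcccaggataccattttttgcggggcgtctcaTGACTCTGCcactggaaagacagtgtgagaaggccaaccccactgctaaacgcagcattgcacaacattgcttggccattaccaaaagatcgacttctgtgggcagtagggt
Txnrd1: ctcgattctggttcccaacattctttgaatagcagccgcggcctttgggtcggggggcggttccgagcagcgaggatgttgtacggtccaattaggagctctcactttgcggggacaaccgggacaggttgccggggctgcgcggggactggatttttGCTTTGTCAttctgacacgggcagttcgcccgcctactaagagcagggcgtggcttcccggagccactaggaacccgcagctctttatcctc
Osgin1: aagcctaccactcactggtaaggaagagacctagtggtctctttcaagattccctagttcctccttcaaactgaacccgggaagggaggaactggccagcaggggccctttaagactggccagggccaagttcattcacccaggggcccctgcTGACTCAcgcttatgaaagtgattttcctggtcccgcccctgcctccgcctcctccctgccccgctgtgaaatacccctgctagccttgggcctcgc
Hspd1: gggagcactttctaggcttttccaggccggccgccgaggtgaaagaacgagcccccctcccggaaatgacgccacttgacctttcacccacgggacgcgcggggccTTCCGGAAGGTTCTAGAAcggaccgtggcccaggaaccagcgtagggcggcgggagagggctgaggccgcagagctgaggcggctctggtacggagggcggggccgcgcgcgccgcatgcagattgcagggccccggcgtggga

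An antioxidant element was found for 4 of 18 NRF2 target and glutathione genes with a window, against 13.5% of all tested genes, and a heat shock element for 2 of 13 heat shock and folding genes, against 0.465%. An AP-1 site was found for 0 of 20 immediate early genes, against 6.84%. Among all 32851 windows the shares were 10.2%, 0.466% and 6.75%. A match says only that these letters stand in the window. Hspd1, the mitochondrial chaperonin HSP60, had a change of -0.80, beside -0.73 for its partner Hspe1.

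Of 17 ATF4 and amino acid genes, 4 were above air at 12 h (background 1.32%) and 10 at 8 h (3.92%). The median change was -0.23 and 5 were lower at an unadjusted p under 0.05 (background 2.74%). Asns, asparagine synthetase, and the transcription factor Atf4 itself fell between phosgene lungs, with differences of -0.80 (adjusted p = 0.00423) and -0.67 (adjusted p = 0.0482). Of 13 injured epithelium genes, 10 were above air at 12 h and 12 at 8 h, with medians of 0.88 and 1.21, and 6 changes were lower at an unadjusted p under 0.05 (3 without lung 1 of phosgene at 8 h). Tnfrsf12a, the receptor of the cytokine TWEAK, had 371, 268 and 248 in phosgene lungs at 12 h, against 92.2, 116 and 92.7 in air lungs at 12 h. It had 780, 654 and 368 in phosgene lungs at 8 h, against 78.9, 73.0 and 100 in air lungs at 8 h. Phosgene lungs of both times were above all air lungs, and lung 1 of 12 h was level with lung 3 of 8 h. Cldn4, a claudin of tight junctions, had effects of 0.78 at 12 h and 1.47 at 8 h. Of 13 interleukin 6 and STAT3 genes, 4 were above air at 12 h and 10 at 8 h, and the change was -0.92 for Il6 and 0.46 for Timp1, an inhibitor of matrix proteases that was above air at both times (1.89 and 1.43). The Il6 levels were 16.1, 26.1 and 33.6 in phosgene lungs of 12 h and 67.2, 106 and 22.9 in those of 8 h, the last within the range of 12 h.

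Of 14 hypoxia and glycolysis genes, 2 were above air at 12 h (background 1.32%) and 4 at 8 h (3.92%). Their changes were lower at an unadjusted p under 0.05 for 4 (background 2.74%), among them Adm and Slc2a1, the glucose transporter GLUT1 (-0.63). Of 17 glucocorticoid-induced genes, 7 were above air at 12 h and 10 at 8 h, and Fkbp5, a cochaperone of the glucocorticoid receptor, had a change of -0.96 (unadjusted p = 0.00838, limma). Of 18 p53 targets, 1 was above air at 12 h and 5 at 8 h. Plk3, a stress kinase, fell by 1.24 on the log2 scale between phosgene lungs (adjusted p = 0.0119), with 4.88, 4.23 and 6.53 at 12 h and 31.9, 56.4 and 19.9 at 8 h. Its air lungs had 4.23, 5.84 and 4.85 at 12 h and 7.41, 4.57 and 4.39 at 8 h, and phosgene lungs of 12 h overlapped them. Plaur, the urokinase receptor, which localises fibrinolysis to cell surfaces, also fell (-0.62, adjusted p = 0.0160).

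Genes of the proteasome, which degrades damaged proteins, were above air at both times with a median change near 0. Of 31 subunits, 12 were above air at 12 h (background 1.32%) and 14 at 8 h (3.92%). The median effect was 0.51 and 0.48, and the median change was 0.00, with 15 changes positive and 16 negative. Psmd1, a subunit of the regulatory particle, had 692, 419 and 532 in phosgene lungs at 12 h, against 378, 339 and 393 in air lungs at 12 h. It had 766, 630 and 610 in phosgene lungs at 8 h, against 339, 388 and 474 in air lungs at 8 h. Phosgene lungs were above air lungs at both times, and the change of -0.20 had a 95% interval of -0.57 to 0.16. Psmb6, a catalytic subunit, had the only unadjusted p under 0.05 in the list (change 0.43). Of 8 subunits of the TRiC chaperonin, 0 were called by limma at 12 h and 2 at 8 h, with a median change of 0.05. Endoplasmic reticulum chaperones had median effects of 0.00 at 12 h and 0.04 at 8 h.

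Of 13 acute phase genes measured, 4 were above air at 12 h (background 1.32%), while at 8 h 1 was above (3.92%) and 1 below (4.83%). The change was positive for 9 and negative for 4 with a median of 0.62. The median effect was 0.54 at 12 h and 0.11 at 8 h. In all, 3 changes were higher at an unadjusted p under 0.05 (background 3.87%), 0 of them called by limma. Orm1, a plasma glycoprotein of the acute phase, had 25.7, 42.9 and 21.1 in phosgene lungs at 12 h, against 5.94, 3.99 and 2.35 in air lungs at 12 h. It had 8.13, 15.3 and 4.08 in phosgene lungs at 8 h, against 12.1, 6.25 and 3.18 in air lungs at 8 h. All phosgene lungs of 12 h were above all other lungs, at a low level, and Orm1 rose by 0.86 between phosgene lungs (adjusted p = 0.0361). Its call was lost without lung 2 of phosgene at 12 h and without lung 1 or lung 3 of phosgene at 8 h. Serpina3n, a protease inhibitor, had effects of 2.73 at 12 h and 1.98 at 8 h, and its change of 0.75 had a 95% interval of -0.19 to 1.69. Its levels in phosgene lungs were 729, 430 and 539 at 12 h and 689, 799 and 382 at 8 h, while those in air lungs were 64.9, 134 and 36.2 at 12 h and 165, 95.7 and 169 at 8 h. The phosgene groups overlapped. Retnla, a secreted protein of alternatively activated macrophages and airway epithelium, had 1716, 3220 and 1014 in phosgene lungs at 12 h, against 390, 392 and 563 in air lungs at 12 h. It had 672, 1158 and 469 in phosgene lungs at 8 h, against 347, 389 and 674 in air lungs at 8 h. Lung 2 was the highest phosgene lung at both times, and the phosgene groups overlapped. The effect of Retnla was 1.97 at 12 h (adjusted p = 0.0104) and 0.65 at 8 h (adjusted p = 0.433), and the change of 1.32 was not called.

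**Figure D4:**
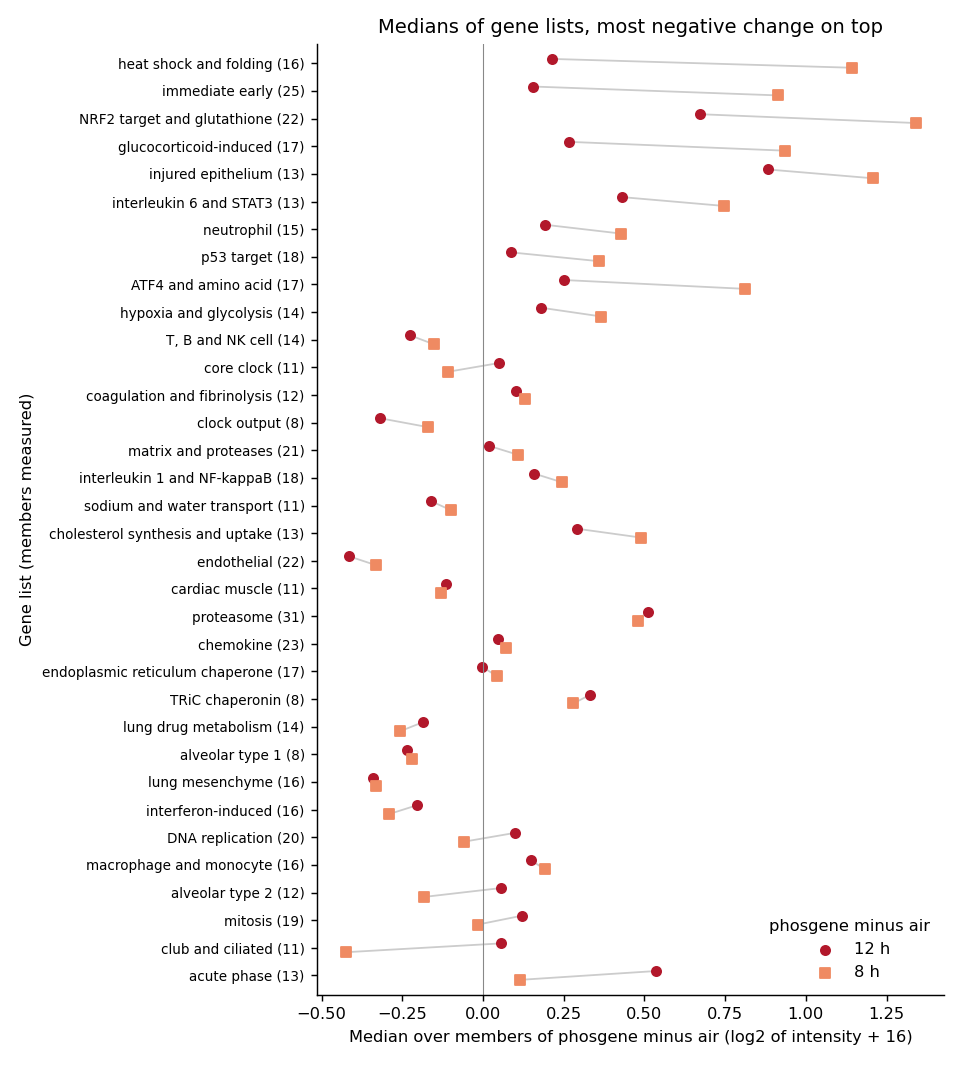
Median phosgene effect (x axis, log2) of each gene list with 8 or more measured members, at 12 h (circles) and 8 h (squares); lists run from the most negative median change on top to the most positive, and numbers in brackets are members measured. Heat shock, immediate early and NRF2 lists stand on top, and club and ciliated cells and acute phase genes at the bottom.

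Genes of the conducting airway were below air at 8 h, and none was called at 12 h. In whole lung, fewer cells of a type and less RNA per cell cannot be told apart. Of 11 club and ciliated cell genes, 0 were called by limma at 12 h and 5 were below air at 8 h (background 4.83%). The median effect was 0.06 at 12 h and -0.42 at 8 h. Of the 11 changes 10 were positive, while over all genes 48.1% were negative. At an unadjusted p under 0.05, 3 were higher (background 3.87%). Tppp3, a tubulin-binding protein of ciliated cells, had 417, 804 and 424 in phosgene lungs at 12 h, against 827, 761 and 912 in air lungs at 12 h. It had 222, 487 and 425 in phosgene lungs at 8 h, against 739, 849 and 1089 in air lungs at 8 h. Lung 2 was the highest phosgene lung at both times, and the phosgene groups overlapped. Tekt1, a tektin of ciliary microtubules, rose by 0.56 between phosgene lungs (adjusted p = 0.0282), with 45.6, 48.2 and 34.1 at 12 h and 19.8, 30.3 and 21.4 at 8 h, and the groups did not overlap. Hp, haptoglobin, had a change of 0.65 and Rsph1, of the ciliary radial spoke, 0.88. Summed intensities of the list were 17430 to 25470 in phosgene lungs of 12 h, 21460 to 25890 in air lungs of 12 h, 16100 to 21420 in phosgene lungs of 8 h and 22970 to 27160 in air lungs of 8 h. Without lung 2 of phosgene at 12 h the median change of the list was 0.22, and without lung 1 of phosgene at 8 h it was 0.22 too.

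Among other structural cells, of 16 lung mesenchyme genes, 1 was below air at 12 h (background 0.516%) and 5 at 8 h (4.83%). The median effect was -0.34 at 12 h and -0.33 at 8 h. The median change was 0.10, with 12 changes positive and 4 negative. Tcf21, a transcription factor of lung fibroblasts, had 395, 676 and 599 in phosgene lungs at 12 h, against 777, 818 and 728 in air lungs at 12 h. It had 335, 352 and 440 in phosgene lungs at 8 h, against 795, 928 and 1100 in air lungs at 8 h. Phosgene lungs were below air lungs at both times, the effect was -0.50 at 12 h and -1.29 at 8 h, and the change of 0.79 was not called (adjusted p = 0.389). Wnt2, a ligand made by lung mesenchyme, had a change of 0.75. Of 22 endothelial genes, 3 were below air at 12 h and 9 at 8 h, with median effects of -0.41 and -0.33 and a median change of -0.01. Cdh5, the endothelial cadherin, had a change of -0.64 and Edn1, endothelin, of -0.83, both at an unadjusted p under 0.05. Of 8 alveolar type 1 genes, 0 were called by limma at 12 h and 2 were below air at 8 h. Their median effect was -0.23 at 12 h and -0.22 at 8 h. The median change was 0.08, with 5 changes positive, among them Rtkn2 (0.57) and Ager (0.31), and 3 negative. Of the alveolar type 2 genes 0 were called by limma at either time.

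Blood cell genes gave no call for the change. The 15 neutrophil genes had summed intensities of 1620 to 2297 in phosgene lungs of 12 h, 1002 to 1592 in air lungs of 12 h, 1871 to 5378 in phosgene lungs of 8 h and 1279 to 1395 in air lungs of 8 h. S100a8, a calcium-binding protein of neutrophils, had 671, 147 and 641 in phosgene lungs at 12 h, against 378, 105 and 61.9 in air lungs at 12 h. It had 2090, 1411 and 468 in phosgene lungs at 8 h, against 147, 257 and 207 in air lungs at 8 h. At 12 h the groups overlapped, and at 8 h phosgene lungs were all above air lungs but spread widely, with lung 3 the lowest. The change of -0.96 had a 95% interval of -2.46 to 0.54. The decoy receptor Il1r2 was above air at both times (1.20 at 12 h and 1.94 at 8 h). The 16 macrophage and monocyte genes had a summed intensity of 4909 to 7395 in phosgene lungs of 12 h, 3711 to 4685 in air lungs of 12 h, 3288 to 4766 in phosgene lungs of 8 h and 3524 to 4675 in air lungs of 8 h. By this sum, to which bright genes add most, phosgene lungs of 12 h were above all others, lung 2 the highest. The median over the members, as log2 level minus the mean of the air lungs, was -0.11, 0.46 and 0.23 in phosgene lungs of 12 h, 0.03, 0.02 and -0.09 in air lungs of 12 h, 0.14, 0.08 and -0.23 in phosgene lungs of 8 h and 0.19, -0.17 and -0.04 in air lungs of 8 h, and the groups overlapped. The part of these cells in the values of Ccr2 and Retnla was not tested. Of the chemokines, Ccl2, which attracts monocytes, had 44.2, 64.3 and 73.0 in phosgene lungs at 12 h, against 24.8, 50.4 and 55.7 in air lungs at 12 h. It had 52.3, 93.0 and 51.8 in phosgene lungs at 8 h, against 14.01, 21.4 and 18.1 in air lungs at 8 h. Phosgene lungs overlapped between times, and the change of -0.86 came with a difference of 0.78 between air lungs. Acta1, the actin of skeletal muscle, had 334, 17.3 and 44.0 in phosgene lungs at 12 h, against 68.3, 6.97 and 489 in air lungs at 12 h. It had 732, 19.6 and 43.5 in phosgene lungs at 8 h, against 8.27, 21.7 and 20.5 in air lungs at 8 h. Single lungs were high in 3 of the groups. The part of muscle tissue in the calls was not tested. Without lung 1 of phosgene at 8 h, the highest, the change was -1.75 for Gclc and -0.80 for Mafk. Neither was called there (adjusted p = 0.0770 and 0.0942, limma). Without lung 3 of air at 12 h, also high, 0 of the 6 genes were called for the change, and without lung 1 of phosgene at 12 h, also high, all 6 were.

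Some genes were called at both times with little change between them. Abcg1, a cholesterol exporter, had 242, 354 and 250 in phosgene lungs at 12 h, against 510, 531 and 387 in air lungs at 12 h. It had 245, 235 and 221 in phosgene lungs at 8 h, against 467, 392 and 443 in air lungs at 8 h. All phosgene lungs were below all air lungs, with effects of -0.73 at 12 h and -0.85 at 8 h and a 95% interval of the change of -0.30 to 0.53. The other genes of largest fall at both times were Dbp (-1.17 and -1.12), a clock-controlled transcription factor, Nrep (-0.96 and -1.22), Sox4 (-0.69 and -1.07), Tmem119 (-0.68 and -1.16) and Ptp4a3 (-0.74 and -0.77), each at 12 h and then at 8 h. The next brightest probe set of Ptp4a3 gave the opposite direction at 8 h, 0.20. Dbp was lower at 12 h than at 8 h in phosgene lungs (-1.01, adjusted p = 0.0488) and by -0.96 in air lungs, which was not called (adjusted p = 0.487). The core clock gene Per2 had a change of -0.78 (unadjusted p = 0.00736, limma).

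Set in the whole series, 8 h was the time of largest effect for Gclc and Sfn, and 4 h for Hmox1 and Hspa1b. Gclc, Sfn, Mafk and Arsa were picked by their difference between 8 and 12 h in these same lungs. An extreme at 8 h is therefore a description only for them. The Gclc effect was 1.47, 2.30 and 2.92 at 0.5, 1 and 4 h, then 3.69 and 1.90 at 8 and 12 h and 1.10, 0.96 and 0.91 at 24, 48 and 72 h. Hmox1 had 4.47 at 4 h and 0.79 at 24 h. Mafk stood at 0.24 at 4 h and 0.11 at 24 h, both below its effect at 8 h. Arsa had 0.02 at 4 h and -0.17 at 24 h, and its effect at 8 h was the lowest of the 8 times. Cckar was at -1.37 at 4 h and -0.06 at 24 h. Orm1 was above air at 24 and 48 h too (1.10 and 1.30, adjusted p = 0.00111 and 1.79e-05).

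**Figure D5:**
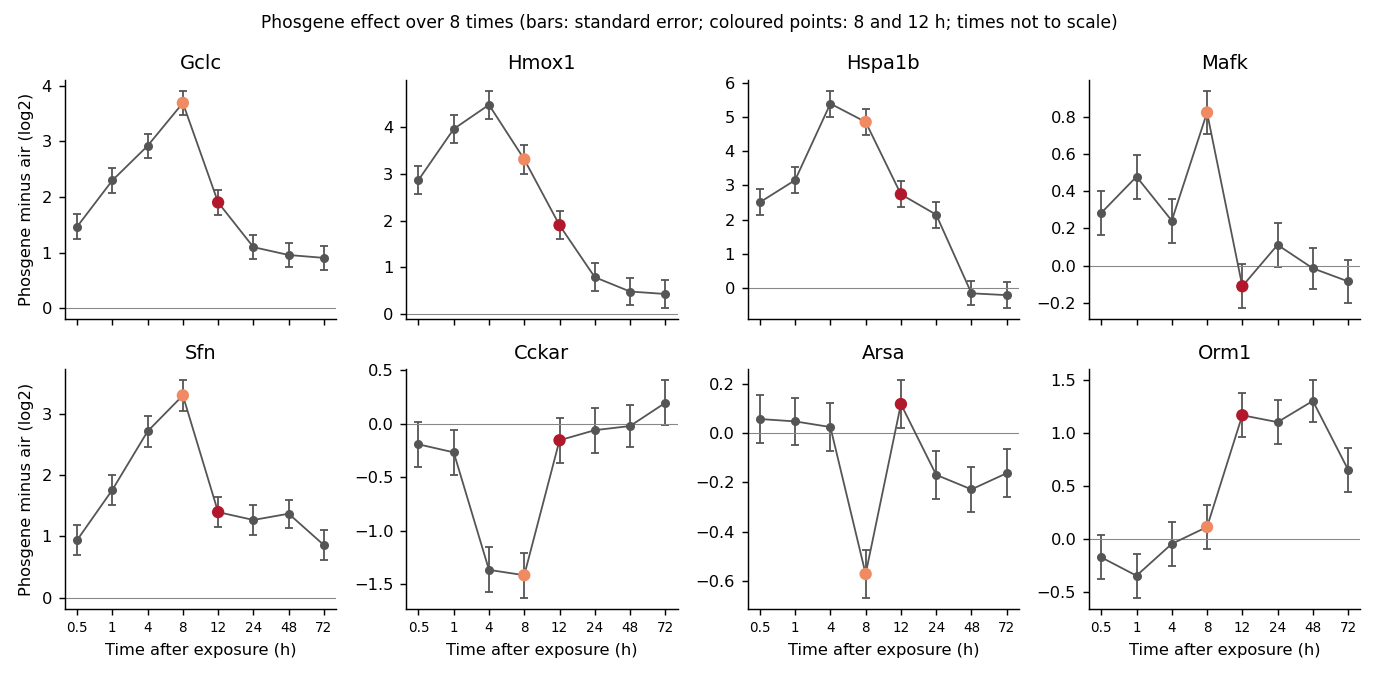
Log2 phosgene effect (y axis, own scale for each gene) of 8 genes at the 8 times of the series (x axis, in h, evenly spaced and not to scale), with bars of 1 standard error; coloured points are 8 and 12 h. Gclc, Sfn and Mafk were highest at 8 h, Cckar was lowest at 4 and 8 h, and Orm1 was above 1 from 12 to 48 h.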

How the data were processed

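Total RNA of whole mouse lung was measured on 104 one-colour oligonucleotide chips, 2 for each of 52 numbered lungs in 17 groups, of which 24 chips (12 lungs, 4 groups) enter the comparison. The intensity values are those of the authors' deposited value table, and how the chip software and the authors summarised the probes is not given in the sources used here. From the values, each chip's mean after trimming 2% at each end was 150.03 to 150.04, so chips had been scaled to a common mean. From the deposited chip settings, chip lot and hybridization day were used as batches. The settings of 1 chip, of lung 3 of air at 72 h, name mouse ear as the sample type. That lung stayed in the main fit, where it enters only the estimate of spread, and a fit without it kept all 6 calls. On 6 of the 24 chips the letter of the chip differed between title and description, and the description was used.

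Of 22690 probe sets, 64 were controls, 691 had several gene symbols and 1555 none in the platform annotation, and 20380 had 1. The brightest probe set stood for each of 12393 genes, 4956 of which had more than 1. Levels were log2(intensity + 16), averaged over the 2 chips of a lung. All 17 groups were fitted in limma 3.58.1 (R 4.3.3) with lmFit, contrasts.fit and eBayes with a variance trend, which left 35 residual degrees of freedom, and p-values were adjusted by Benjamini-Hochberg over all genes. The code was tested on simulated data. Figures used Python 3.11.15 and matplotlib 3.10.9.

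Genes were named by rule. All genes called in the change were named, then those of smallest p up to 10 in each direction. Further names were the called members and up to 4 members of largest change of each list, the 6 of largest mean effect in each direction among genes called at both times, and the 5 of largest difference in each direction among genes called between times. Members and gene lists were chosen with earlier results of these data known, so no list is independent evidence. Akr1b8, Hspd1 and Hspe1 were named after their values were seen. Alternatives were other offsets, chip centring, quantile normalization, a filter on dim genes, the mean of all probe sets, 1 chip per lung, the 4 groups alone, no trend, array weights, fits of single chips with chip letter, hybridization day or lot, and each lung left out. The chips of 1 lot alone, the fit without 1 air lung of 72 h, the next brightest probe set and the within-day values were added after the data were seen.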

Additional observations from a re-analysis of the deposited data

Results flagged for a closer look

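For 6 genes the phosgene effect at 12 h differed from that at 8 h by the test of the difference itself, limma's contrast of the 4 groups. The difference, 12 h minus 8 h, was -1.79 for Gclc, -0.93 for Mafk, -1.90 for Sfn and -1.96 for Osgin1. It was 0.69 for Arsa and 0.93 for Ribc1. Groups of 3 lungs were too small to search for single outlying samples.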

How the results depend on the processing

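The 6 genes called for the change of the phosgene effect kept their direction under every alternative that tested them, but their calls depended on the fit. Values were -2.06 to -1.23 for Gclc, -1.06 to -0.80 for Mafk, -2.55 to -1.25 for Sfn, -2.34 to -1.36 for Osgin1, 0.60 to 0.78 for Arsa and 0.53 to 1.23 for Ribc1. Against 2 genes higher and 4 lower, an offset of 1 gave 2 lower. The calls of Sfn (adjusted p = 0.186, limma) and Osgin1 (adjusted p = 0.0837) were lost there. Testing only the brighter genes gave 1 higher and 2 lower, and left Sfn, Osgin1 and Ribc1 untested. Chip A alone gave 0 higher (480 at an unadjusted p under 0.05) and 2 lower, and chips of 1 lot alone likewise 0 higher (378) and 2 lower. Chip B alone gave 0 and 0 (454 and 417 at an unadjusted p under 0.05), and limma on the 4 groups fitted alone, with fewer lungs for the estimate of spread, 0 and 0 (361 and 297). Array weights gave 10 and 20. The chip letter as replicate block, with lung as a random block, gave 23 and 38, hybridization day as a term 19 and 26 and chip lot 19 and 35. These fits of single chips assume 1 correlation between the chips of a lung for all genes (0.283 to 0.325), and the extra calls are not added support. Lung numbers do not pair lungs across groups in the labels. Leaving out each lung gave 0 to 8 higher and 0 to 27 lower, the most without lung 3 of phosgene at 8 h and 16 lower without lung 1 of phosgene at 12 h. Between phosgene lungs of 12 h and 8 h 77 genes were called, against 41 and 26 with chip A and chip B alone, 43 with 1 lot, 0 (886 at an unadjusted p under 0.05) with the 4 groups alone, 48 with array weights, 211 with chip letter, 142 with day and 175 with lot. Without 1 lung they were 4 to 134. Between air lungs chip A alone called 2, array weights 93, the letter and lot fits 5 and the day fit 4. For phosgene against air at 12 h, 227 genes became 124 and 148 with chip A and chip B alone, 52 with the 4 groups alone, 555 with chip letter, 529 with day and 597 with lot, and 89 to 273 without 1 lung, the fewest without lung 1 of phosgene at 12 h. At 8 h, 1084 became 580 with chip B alone, 481 with the 4 groups alone and 1788 with array weights, and 493 to 1192 without 1 lung, the fewest without lung 1 of phosgene at 8 h. With each chip centred on its median the share of higher calls was 85.3% at 12 h (71.8% without centring) and 59.6% at 8 h (44.8%). The next brightest probe set of Ptp4a3 gave a phosgene effect of 0.20 at 8 h, the reverse of the -0.77 of the brightest, and the cause was not tested. No depth is known for arrays, and levels of a few units, as for Sfn and Plk3 in air, cannot be ranked.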

Other observations

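Further gene groups, in which limma called no change, are given as values. Of 19 mitosis genes 16 had a positive change, with a median of 0.27, but without lung 2 of phosgene at 12 h the median was -0.04. That lung had a list median of 0.70 above the mean of the air lungs, against -0.18 and -0.02 in the other phosgene lungs of 12 h. Of 20 DNA replication genes 14 had a positive change, with a median of 0.19. None of the mitosis and DNA replication genes was called by limma against air at either time. Of 12 alveolar type 2 genes 11 had a positive change (median 0.24, or 0.14 without lung 2 of phosgene at 12 h), with a median effect of 0.05 at 12 h and -0.18 at 8 h. Of 13 genes of cholesterol synthesis and uptake, 0 were called by limma at 12 h and 5 were above air at 8 h (background 3.92%), and the median change was -0.06. Of 14 genes of lung drug metabolism, 0 were called by limma at 12 h, while 1 was above and 6 were below air at 8 h (background 4.83% below). Their changes were positive for 9 and negative for 5. Over all genes 48.1% had a negative change.

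Cyp1a1, a cytochrome P450 induced through the aryl hydrocarbon receptor, had levels of 91.8, 57.2 and 129 in phosgene lungs at 12 h, against 170, 202 and 198 in air lungs at 12 h. It had 192, 153 and 192 in phosgene lungs at 8 h, against 103, 108 and 200 in air lungs at 8 h. At 12 h all phosgene lungs were below all air lungs, and at 8 h the groups overlapped. The change of Cyp1a1 was -1.38 ± 0.41 SE, which was not called (adjusted p = 0.256, limma).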
